A study of Mus musculus with 40 samples.

Results

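The gastrocnemius, a large muscle of the calf, and the quadriceps, the large extensor of the knee at the front of the thigh, were compared in mice fed a high fat diet (HFD). The comparison used the 20 arrays of the 10 HFD mice, with 10 arrays for each muscle, of 40 arrays in the study. The arrays were chosen by their labels, which give the diet and the muscle, and both muscles of a mouse were paired by its number. The study asked which genes distinguish muscle types and whether diet alters them. All mice were male C57BL/6J mice, written C56BL/6J in the labels, with no transgene or deletion. They were on a run-in low fat diet (LFD) for 3 weeks from 9 weeks of age, then on an HFD with 45 kcal% fat, or stayed on an LFD with 10 kcal% fat, for 8 weeks until 20 weeks of age. The mice were fasted for 6 hours before dissection. The 20 arrays of the 10 LFD mice are used here only to compare the muscle difference between diets. Each muscle was a whole tissue homogenate, so that its RNA comes from all cell types of the sample.

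Every sample had the RNA profile of skeletal muscle. The summed signal intensity of 10 markers of the skeletal muscle fiber, among them *Acta1* and *Ckm*, was between 110000 and 118000 in the gastrocnemius and between 108000 and 115000 in the quadriceps, and none of the 10 markers passed the test between the muscles. The values are signal intensities of an Affymetrix array with 1 probe set per gene, in which the median probe set of an array had an intensity of 8.9 to 9.4 in the HFD mice. Probe sets with a mean intensity over 20 across the 40 arrays were tested (6479 of 16475). No fold is given for a gene with a group mean under 20, because its size there depends on the background. The mean of *Sec24b*, the lowest among the tested probe sets, was 20.03, and that of *Lratd2*, the highest among those not tested, was 19.98. The ratio of 3' to 5' probes, a measure of RNA degradation, was between 1.25 and 1.44 in the gastrocnemius and between 1.21 and 1.5 in the quadriceps for actin. Of the HFD arrays, 6 of the quadriceps stood apart by a signal of neutrophil genes, and among the LFD mice number 141 stood apart because its muscles were alike. Calls that were lost without one of these mice are given as such.

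Skeletal muscle is built of slow and fast fibers. Slow type I fibers carry their own myosin, troponin and calcium pump isoforms and work by oxidative metabolism, and fast type II fibers carry the fast isoforms. The identity of a muscle is also laid down during limb development by transcription factors such as Hox and T-box proteins, some of which stay expressed in the adult. Hox genes lie in clusters named HoxA to HoxD, in which neighbouring genes are expressed along the limb in the order of their position.

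*Hoxd8*, *Hoxd9* and *Hoxd10*, 3 neighbours in the HoxD cluster, were all higher in the gastrocnemius, and so were 9 of 12 tested slow fiber genes. The 250 bases before the start site of *Hoxd9*, of *Hoxd8* and of 4 of these slow fiber genes (*Tnni1*, *Tnnt1*, *Myoz2* and *Ankrd2*) are shown as examples of these 2 groups of genes. The sequences come from RefSeq, build GRCm38.p6, and are written 5' to 3' on the strand of the gene. Capitals mark CANNTG (the E-box, a letter pattern to which MyoD and related factors can bind), TATAAA (the TATA box) and the MEF2 consensus, searched on both strands, and no marked motif overlaps another in these sequences.
*Hoxd9*, chr2:74697513-74697762, plus strand: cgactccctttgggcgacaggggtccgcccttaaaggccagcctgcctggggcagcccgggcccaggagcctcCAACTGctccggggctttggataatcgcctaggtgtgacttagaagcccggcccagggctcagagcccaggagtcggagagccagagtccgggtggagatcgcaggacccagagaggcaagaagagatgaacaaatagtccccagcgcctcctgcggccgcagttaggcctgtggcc
*Hoxd8*, chr2:74704365-74704614, plus strand: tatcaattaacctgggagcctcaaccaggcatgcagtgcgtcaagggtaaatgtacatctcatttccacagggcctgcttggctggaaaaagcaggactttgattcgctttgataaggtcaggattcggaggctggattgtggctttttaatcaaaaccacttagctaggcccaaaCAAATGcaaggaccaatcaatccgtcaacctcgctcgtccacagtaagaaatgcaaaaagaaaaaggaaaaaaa
*Tnni1*, chr1:135799171-135799420, plus strand: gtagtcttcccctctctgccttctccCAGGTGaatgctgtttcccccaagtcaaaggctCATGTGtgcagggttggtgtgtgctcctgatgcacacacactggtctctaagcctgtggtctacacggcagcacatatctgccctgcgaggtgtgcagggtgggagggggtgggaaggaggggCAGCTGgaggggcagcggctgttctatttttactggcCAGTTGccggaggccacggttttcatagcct
*Tnnt1*, chr7:4515976-4516225, minus strand: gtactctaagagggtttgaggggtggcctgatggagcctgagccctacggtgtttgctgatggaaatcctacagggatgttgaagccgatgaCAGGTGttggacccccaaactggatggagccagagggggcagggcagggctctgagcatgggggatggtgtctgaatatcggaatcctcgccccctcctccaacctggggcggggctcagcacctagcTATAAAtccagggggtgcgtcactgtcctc
*Myoz2*, chr3:123034988-123035237, minus strand: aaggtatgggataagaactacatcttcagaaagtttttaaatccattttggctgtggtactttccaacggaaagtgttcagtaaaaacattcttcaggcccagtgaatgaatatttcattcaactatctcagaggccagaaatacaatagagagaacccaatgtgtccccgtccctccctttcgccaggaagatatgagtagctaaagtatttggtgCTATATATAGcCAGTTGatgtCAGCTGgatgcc
*Ankrd2*, chr19:42035777-42036026, plus strand: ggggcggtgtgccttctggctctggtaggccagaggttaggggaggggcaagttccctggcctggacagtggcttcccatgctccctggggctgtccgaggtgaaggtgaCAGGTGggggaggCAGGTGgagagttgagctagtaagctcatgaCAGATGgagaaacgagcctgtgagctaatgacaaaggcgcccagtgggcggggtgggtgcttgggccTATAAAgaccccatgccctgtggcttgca
CANNTG was found in all 12 promoters listed for 8 of the 9 slow fiber genes that were higher in the gastrocnemius, in 59.9% of the promoters of all genes higher and 68.5% of those of all genes lower in the gastrocnemius, in 56.9% for all tested genes and in 66.2% of the 32851 promoters of the mouse. The 12 are not independent, because the promoters listed for *Tnni1* overlap and share matches, as do those listed for *Myh7*. TATAAA was found in 3 of the 12 and in 6.5% of the promoters of tested genes and 12.4% of all promoters, at position -30 before the start site in *Tnnt1* and -29 in *Ankrd2*. The MEF2 consensus was found in 1 of the 12, that of *Myoz2* at position -33, and in 1.7% of the promoters of tested genes and 2.9% of all promoters. These are matches of letters and not measured binding sites.

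In the HFD mice 233 genes (3.60% of those tested) differed between the muscles by a fold change over 1.3 at an FDR under 0.05 (limma's moderated test on pairs, with Benjamini-Hochberg adjustment). Of these, 122 (1.88%) were higher in the gastrocnemius and 111 (1.71%) were lower. The difference had the same direction in all 10 mice for 146 of the 233 genes, against 288 (4.45%) of all tested, and in 9 mice for 64 more. The median fold change was 1.5 for the genes higher in the gastrocnemius and 1.51 for those lower, and 25 genes were more than 2-fold higher and 16 more than 2-fold lower. The 10 values of one muscle lay apart from the 10 of the other for 53 of the 233 genes, against 65 (1.0%) of all tested. The median difference of all tested genes was -0.02 on the log2 scale. The FDR alone was passed by 409 genes (6.31%), 206 higher (3.18%) and 203 lower (3.13%) in the gastrocnemius, of which 176 had a fold change under 1.3.

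**Figure D1:**
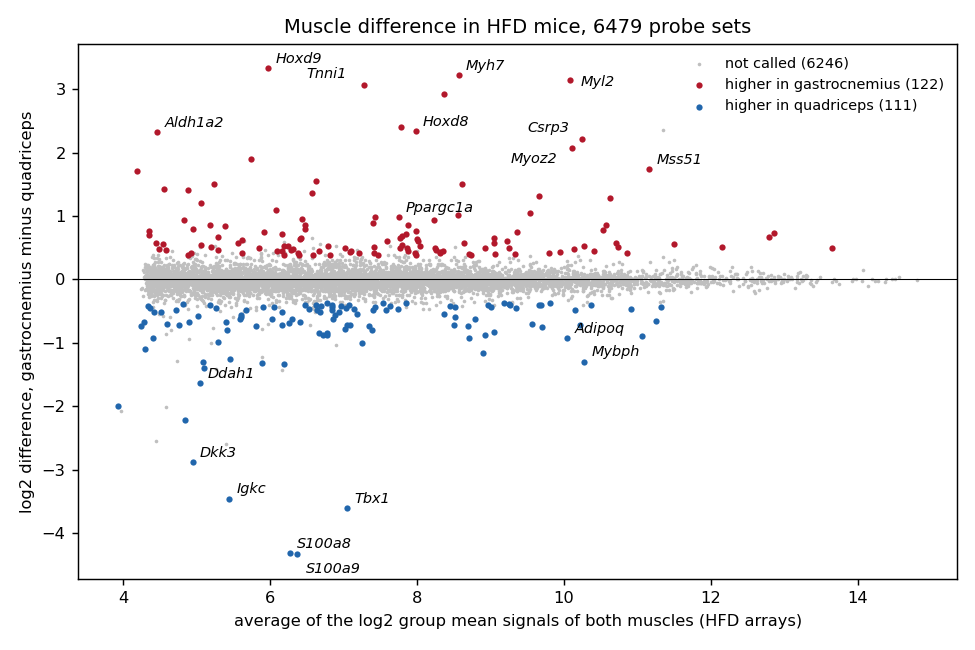
Log2 difference between the gastrocnemius and the quadriceps of 10 HFD mice (vertical axis) against the average log2 signal intensity of both muscles (horizontal axis) for 6479 probe sets. Red points are the 122 genes called higher in the gastrocnemius, blue points the 111 called higher in the quadriceps and grey points all others. *Hoxd9*, *Myh7* and *Myl2* stand at the top and *S100a8*, *S100a9* and *Tbx1* at the bottom.

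*Hoxd8* and *Hoxd9*, transcription factors of limb patterning, separated the muscles in all mice. *Hoxd9* had a signal intensity of 171.1 at the lowest, 192.1 at the median and 228.2 at the highest in the gastrocnemius, and of 11.7, 19.5 and 40.1 in the quadriceps. The groups did not overlap, and *Hoxd9* was 10.05-fold higher in the gastrocnemius (log2 3.33, SE 0.14, adjusted p = 2.36e-08 by limma). With a quadriceps median of 19.5, the size of this fold depends on the background. *Hoxd8* ranged from 490.3 to 646.6 (median 556.7) in the gastrocnemius and from 78.9 to 156.3 (median 105.2) in the quadriceps, a 5.06-fold difference with the smallest adjusted p of all tested genes (1.72e-09). *Hoxd10* had a mean over all arrays under the filter and was not part of the fit. Its signal intensity was 14.2 to 34 (median 26.75) in the gastrocnemius against 3.1 to 5.4 (median 4.05) in the quadriceps, and it was higher in the gastrocnemius in 10 of 10 mice (exact two-sided permutation test of signs, p = 0.00195, the smallest that 10 pairs can give). The 3 genes lie next to each other on chromosome 2, with 5872 bases between the starts of *Hoxd10* and *Hoxd9* and 6852 between those of *Hoxd9* and *Hoxd8*. The flanking *Hoxd11* and *Hoxd3* had group means of 3.15 to 3.94 in both muscles, below the median probe set.

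Few other Hox genes were measured above background. Of 34 Hox genes on the array 7 were tested, of which 2 were higher and 1 was lower in the gastrocnemius (42.9% called, against 3.60% of all tested genes). The one that was lower was *Hoxc6*, with a mean of 15.4 ± 2.52 in the gastrocnemius against 29 ± 2.59 in the quadriceps (SD, n = 10), and no overlap between the groups (adjusted p = 1.89e-05 by limma). *Hoxc10*, the Hox gene with the highest intensity, had a mean of 877 ± 40.7 and 977 ± 67.9 and did not pass the test. *Hoxa5* and *Hoxa10* had log2 differences of -0.13 and 0.13, *Hoxc9* had means of 20 ± 3.58 and 23.3 ± 5.17, and none of these passed.

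*Tbx1*, a T-box transcription factor required for the formation of the pharyngeal arches and their muscles, was the opposite of the HoxD genes. It ranged from 19.1 to 53.7 (median 41.2) in the gastrocnemius and from 398.4 to 535.2 (median 444.1) in the quadriceps. The lowest quadriceps was far above the highest gastrocnemius, and *Tbx1* was 12.23-fold lower in the gastrocnemius (log2 -3.61, SE 0.15, adjusted p = 2.36e-08). *Tbx15*, the other T-box gene tested of 15 on the array, had means of 661 ± 88.7 and 805 ± 137, a 1.21-fold difference that passed the FDR (0.028) but not the fold change. Of 3 tested genes of the Dickkopf family and of secreted Wnt antagonists, 1 was called (33.3%, against 3.60% of all tested genes). It was *Dkk3*, whose function the paper describes as poorly understood. *Dkk3* was lower in the gastrocnemius (8.1 to 14.6, median 11.25) than in the quadriceps (45.9 to 145.4, median 80.15), with no overlap (adjusted p = 3.69e-06). *Dkk2* had means of 21.7 ± 4.26 and 24.4 ± 6.85 and did not pass. Among the homeobox and Eya-type regulators of limb and muscle, *Irx3* was 1.43-fold lower in the gastrocnemius, in 10 of 10 mice, without overlap (adjusted p = 0.000688). *Eya1*, which activates muscle genes in the embryo, had a log2 difference of -0.21 and did not pass.

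Of 9 tested genes of retinoid metabolism and signaling, 2 were called higher and 1 lower in the gastrocnemius (33.3%, against 3.60% of all tested genes). The median log2 difference of the list was 0.01. *Aldh1a2*, an enzyme that makes retinoic acid, had a signal intensity of 33.8 to 80.4 (median 43.75) in the gastrocnemius against 7.7 to 12.9 (median 10.05) in the quadriceps, with no overlap (adjusted p = 3.12e-07). Its paralog *Aldh1a1* was lower in the gastrocnemius, 1516 to 1757 against 2008 to 2524, a 1.37-fold difference without overlap (adjusted p = 0.000137).

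*Mss51*, a muscle protein of the mitochondria, separated the muscles at a high signal. Its signal intensity was 3659 to 4778 (median 4230) in the gastrocnemius against 1014 to 1532 (median 1261) in the quadriceps, a 3.34-fold difference without overlap (adjusted p = 2.36e-08). *Slc15a5*, of the oligopeptide transporter family, was higher in the gastrocnemius in 10 of 10 mice with means of 33.1 ± 13.6 and 10.1 ± 4. *Kcnc4*, a voltage-gated potassium channel, was 1.79-fold lower, with 55.6 to 90.9 against 121.2 to 182.5 and no overlap.

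**Figure D2:**
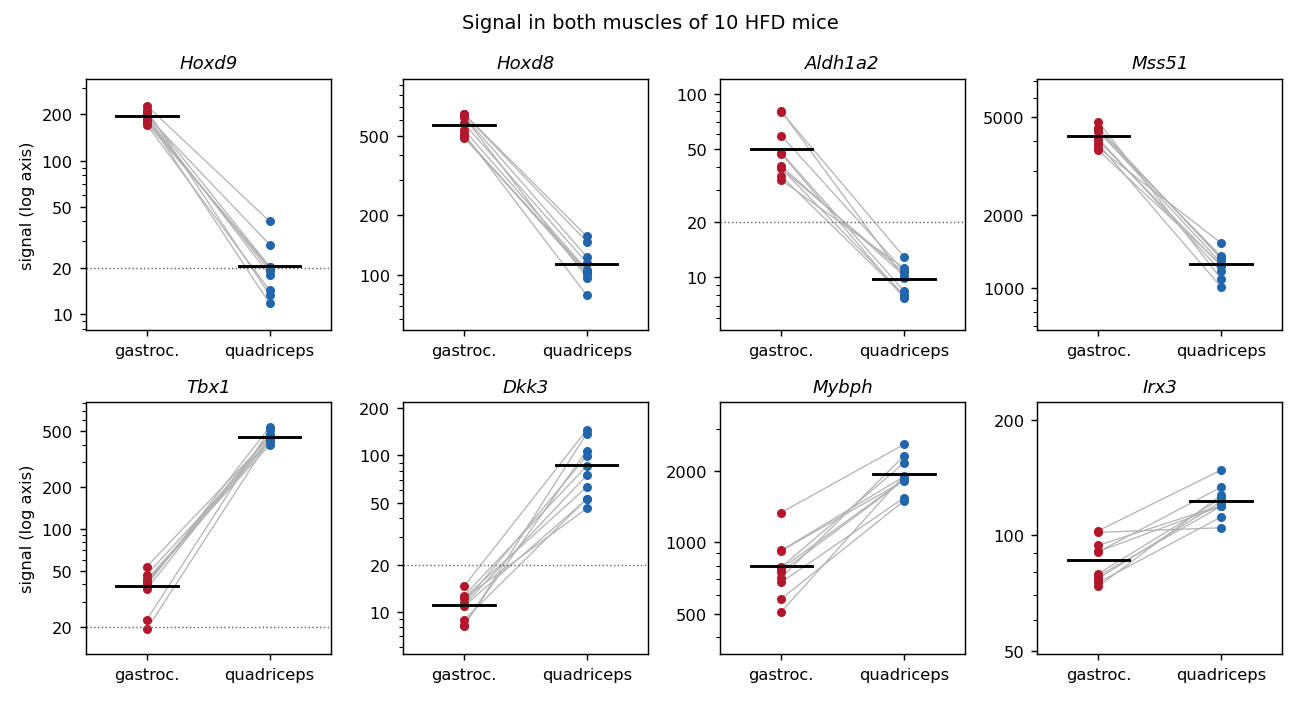
Signal intensity (log axis) of 8 genes in the gastrocnemius (red) and quadriceps (blue) of 10 HFD mice, with a grey line for each mouse and a black bar for the arithmetic mean of each muscle. The dotted line marks an intensity of 20, and in none of the 8 genes do the muscles overlap.

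Genes of slow type I fibers were higher in the gastrocnemius. Of 12 tested slow fiber genes, 9 were called higher and none lower (against 1.88% of all genes called higher), and their median log2 difference was 2.28, against -0.02 for all tested genes. *Myl2*, the slow regulatory myosin light chain, had signal intensities of 1863 to 3052 (median 2533) in the gastrocnemius against 28.4 to 857.5 (median 552.7) in the quadriceps, an 8.83-fold difference (SE 0.55 on log2 3.14, adjusted p = 0.00445). *Myh7*, the slow myosin heavy chain, was 9.32-fold higher (adjusted p = 0.0202) and *Tnni1*, slow troponin I, 8.36-fold (adjusted p = 0.00435). The other subunits of slow troponin, *Tnnt1* and *Tnnc1*, were 7.64-fold and 5.28-fold higher. The fold sizes of *Myh7*, *Tnni1*, *Tnnt1* and *Tnnc1* depend on the background, with lowest quadriceps values of 4.9, 6, 7.3 and 12.1. Arithmetic means were 804 and 180 for *Myh7* and 357 and 67.6 for *Tnni1* (gastrocnemius and quadriceps). *Csrp3* and *Myoz2*, proteins of the Z-disc, were 4.62-fold and 4.21-fold higher without overlap. *Atp2a2*, the slow calcium pump, and *Ankrd2*, a stretch-responsive protein, both named after their values were seen, were 2.49-fold and 2.45-fold higher. *Myl3*, the slow essential light chain, was higher in 10 of 10 mice but spread so widely in the quadriceps (18.6 to 3073) that it did not pass (adjusted p = 0.111), and *Casq2* and *Mybpc1* did not pass either. Without mouse 158, *Myh7* had an adjusted p of 0.0513 and a log2 difference of 2.91. In a whole muscle, a difference in the number of slow fibers and one in RNA per fiber cannot be told apart.

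The slow fiber genes varied more among quadriceps than among gastrocnemii. *Myh7* spanned 368.1 to 1121 in the gastrocnemius, a 3.05-fold range. In the quadriceps it spanned 4.9 to 395.8, an 80.8-fold range whose size depends on the background, as 4.9 is below the median probe set. In the quadriceps its signal intensity was 4.9 in mouse 143, 7.7 in mouse 151, 16.8 in mouse 158, 70 in mouse 144, 78.2 in mouse 152, 241.2 in mouse 157, 299.8 in mouse 150, 330.3 in mouse 149, 356.7 in mouse 146 and 395.8 in mouse 145. The quadriceps of mice 143, 151 and 158 were among the 4 lowest for all 9 called slow fiber genes. For all 12 tested members the SD between mice (log2) was larger in the quadriceps, with a median of 1.34 against 0.35 in the gastrocnemius, while over all tested genes the median SD was 0.19 and 0.18. Mouse 145 had the lowest *Myh7* of all gastrocnemii and the highest of all quadriceps, and was the only one of 10 in which *Myh7* was lower in the gastrocnemius.

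Markers of blood cell lineages also varied between quadriceps. *S100a8* and *S100a9*, calcium-binding proteins abundant in neutrophils, had signal intensities below 10 in all 10 gastrocnemii. In the quadriceps *S100a8* was 6.5, 6, 11.9 and 5.7 in mice 143, 144, 151 and 158, and 4031, 1067, 983, 994.5, 527.1 and 585.6 in mice 145, 146, 149, 150, 152 and 157. The summed intensity of 12 neutrophil markers was 60.1 to 66.8 in the gastrocnemius against 55.2 to 14000 in the quadriceps. None of the 6 tested neutrophil markers exceeded 20 in any gastrocnemius or in the quadriceps of mice 143, 144, 151 and 158, and 4 to 6 of them exceeded 20 in each of the other quadriceps. Of the 6, 2 were called (33.3%, against 3.60% of all tested genes). They were *S100a8* and *S100a9*, lower in the gastrocnemius (adjusted p = 0.0268 and 0.0341). Both calls were lost without any one of mice 145, 146, 149, 150, 152 and 157 (adjusted p of 0.0556 to 0.0697 for *S100a8*). The 4 quadriceps without neutrophil marker signal were also the 4 with the least *Myh7*. Of these, mouse 144 (70) was close to mouse 152 (78.2), which had neutrophil marker signal. Of the 9 called slow fiber genes, mouse 144 was among the 4 lowest quadriceps for 6 and mouse 152 for 3. Whether the source of the neutrophil RNA has a part in the slow fiber values of the quadriceps was not tested.

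**Figure D3:**
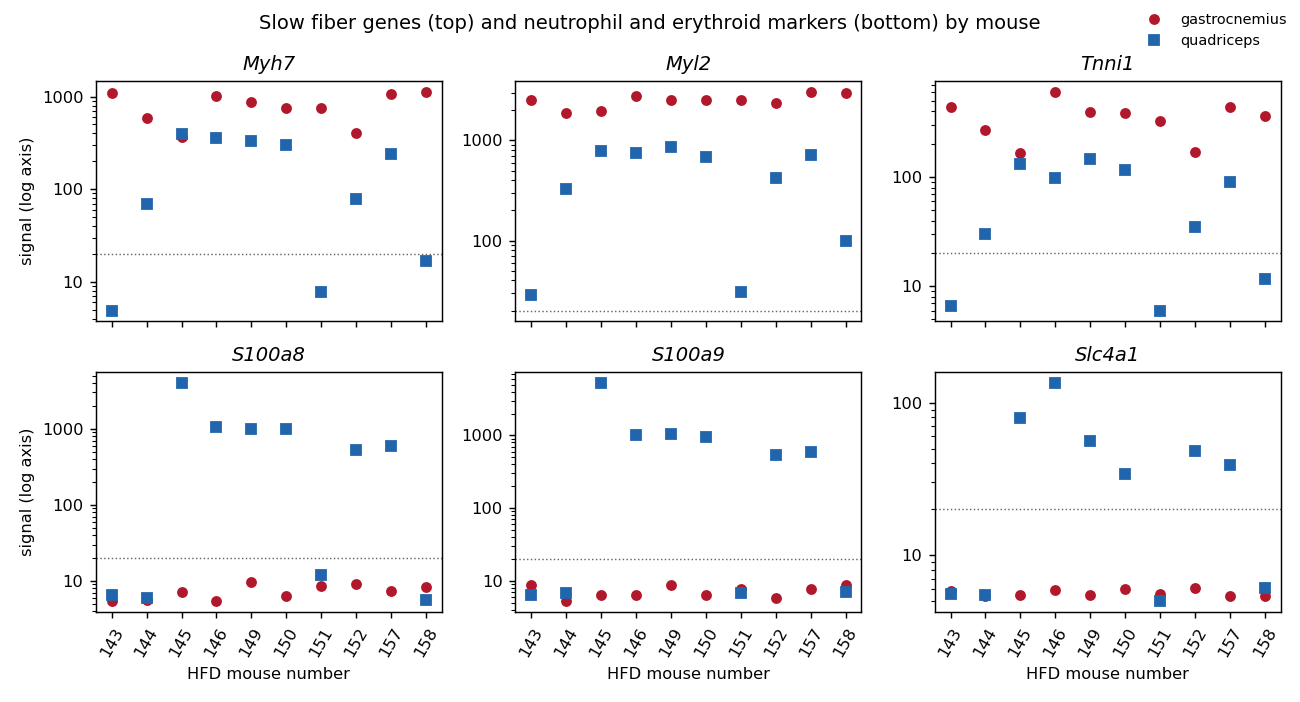
Signal intensity (log axis) of 3 slow fiber genes (*Myh7*, *Myl2*, *Tnni1*) and of *S100a8*, *S100a9* and *Slc4a1* in the gastrocnemius (red circles) and quadriceps (blue squares) of each HFD mouse, with the number of the mouse on the horizontal axis and a dotted line at 20. The quadriceps of mice 143, 144, 151 and 158 lie at the level of the gastrocnemii for the lower 3 genes. The same quadriceps are the lowest for the upper 3, with that of mouse 144 close to that of mouse 152.

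Of 2 tested erythroid markers 1 was called (50%, against 3.60% of all tested genes). *Alas2* had means of 15.8 ± 4.86 and 36.6 ± 25.7 and did not pass. *Slc4a1*, the anion exchanger of red cells, was raised in the same 6 quadriceps as the neutrophil genes. Its level there did not follow that of *S100a8*, with the highest *Slc4a1* in mouse 146 and the highest *S100a8* in mouse 145. *Slc4a1* was 5.4 to 6.1 in the gastrocnemius, 5 to 6.1 in the quadriceps of mice 143, 144, 151 and 158 and 34 to 134.9 in the other quadriceps (adjusted p = 0.0329, lost without any one of the same 6 mice at 0.0661 to 0.0797). *Igkc*, the constant region of the immunoglobulin kappa chain, had a different set of high quadriceps. It was 7.7 and 8.6 in mice 143 and 144 and 15.5 in mouse 157, but 142.3 in mouse 151 and 352.8 in mouse 158, where *S100a8* was 11.9 and 5.7, and its range in the gastrocnemius was 4.6 to 41.7 (adjusted p = 0.00397). *Ighm*, the heavy chain of the IgM antibody, named after its values were seen, was 1.63-fold lower in the gastrocnemius, in 10 of 10 mice. None of 10 markers of B and T lymphocytes on the array passed the signal filter. Of 3 tested bone and osteoclast markers 1 was called (33.3%, against 3.60% of all tested genes). It was *Acp5*, an osteoclast phosphatase, 2.47-fold lower in the gastrocnemius (adjusted p = 0.00159). With a gastrocnemius median of 17.9, the size of this fold depends on the background. *Spp1* had means of 32.6 ± 17.4 and 108 ± 104 and *Alpl* of 20.4 ± 3.72 and 20.8 ± 6.21, and neither passed. None of 8 macrophage markers was called, among them *Lyz2* (449 ± 99.4 and 625 ± 267) and *C1qb* (159 ± 27.3 and 191 ± 52.6).

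Of 14 tested fast fiber genes 1 was called (7.14%, against 3.60% of all tested genes). It was *Myh2*, the myosin heavy chain of type IIa fibers, 1.4-fold higher in the gastrocnemius (13550 to 16690 against 7246 to 14860, adjusted p = 0.0134), and the median log2 difference of the list was -0.03. *Myh1*, the myosin of type IIx fibers, had means of 10300 ± 831 and 10800 ± 632 and did not pass. Of 7 tested developmental and accessory sarcomere genes, 2 were called higher and 2 lower in the gastrocnemius (57.1%, against 3.60% of all tested genes). The embryonic and atrial light chain *Myl4* and the M-band protein *Myom3* were 2.12-fold and 3.72-fold higher in the gastrocnemius. *Mybph*, a myosin-binding protein, was 2.47-fold lower, with 511.4 to 1334 against 1493 to 2573 and no overlap, and *Actc1*, cardiac alpha-actin, was 1.58-fold lower in 10 of 10 mice.

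Of 81 tested genes of fatty acid oxidation, oxidative phosphorylation, the citric acid cycle and glycolysis 2 were called (2.47%), a share near the 3.60% of all tested genes. None of 21 genes of fatty acid oxidation and none of 29 of oxidative phosphorylation was called, with median log2 differences of 0.02 and 0. *Cox7a1*, the muscle isoform of a cytochrome oxidase subunit, passed the FDR (0.0209) with a log2 difference of -0.19. Of 14 genes of the citric acid cycle, *Idh2* was 1.43-fold higher in the gastrocnemius, and of 17 genes of glycolysis and glycogen, *Ldhb*, the heart-type subunit of lactate dehydrogenase, was 1.37-fold higher. The *Ldhb* call (adjusted p = 0.0419) was lost without any one of 9 mice, all but 145, at 0.0573 to 0.096. *Ppargc1a*, the coactivator PGC-1alpha that drives mitochondrial and slow fiber genes, was 1.98-fold higher, with 169.8 to 389.1 against 83.1 to 223, in 10 of 10 mice (adjusted p = 0.000268). No gene of branched-chain amino acid degradation was called among 23, and *Bckdhb* and *Acadsb* were lower in the gastrocnemius in 10 of 10 mice by less than the fold threshold (log2 -0.31 and -0.28).

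Of 15 genes of arginine, polyamine and methylarginine metabolism, 1 was higher and 3 were lower (26.7% called, against 3.60% of all tested genes). *Ddah1*, which degrades the inhibitor of nitric oxide synthase asymmetric dimethylarginine, had means of 18.8 ± 7.07 in the gastrocnemius against 58.6 ± 21.3 in the quadriceps and was lower in 10 of 10 mice (adjusted p = 0.000459). *Odc1*, the first enzyme of polyamine synthesis, was 1.62-fold higher (adjusted p = 0.000125). *Glul*, glutamine synthetase, was 1.4-fold lower, and *Gamt*, an enzyme of creatine synthesis named after its values were seen, had means of 17.7 ± 2.68 and 24.2 ± 3.92.

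Some fat cell genes were lower in the gastrocnemius. Of 9 tested adipocyte markers 4 were called lower (against 1.71% of all tested genes) and none higher, with a median log2 difference of -0.93. *Adipoq*, the hormone adiponectin, ranged from 312.9 to 2151 (median 653.2) in the gastrocnemius and from 584.3 to 2701 (median 1272) in the quadriceps, a 1.91-fold difference (adjusted p = 0.0216). *Retn* and *Adig* were 2.39-fold and 1.99-fold lower, and *Cfd* 1.83-fold. The ranges overlapped for all 4. The calls of *Adipoq* and *Cfd* were both lost without mouse 145, 150 or 158 (0.0519 to 0.0551 for *Adipoq*), which left 2 called markers, that of *Cfd* also without mouse 143, 146, 151 or 157, and also without the pairing of muscles (adjusted p = 0.0516 and 0.102). *Cidec*, a protein of lipid droplets, had means of 48.6 ± 66.6 and 106 ± 76 and did not pass (0.0597). The summed intensity of 11 adipocyte markers was higher in the quadriceps in 9 of 10 mice, and mouse 149 had 13190 in the gastrocnemius, against 6835 to 8723 in the other gastrocnemii. Of 11 tested genes of fatty acid synthesis, 2 were called, both lower (18.2%, against 3.60% of all tested genes). *Thrsp*, a regulator of lipogenesis, was 1.48-fold lower (adjusted p = 0.000537). *Scd1*, the stearoyl-CoA desaturase, was 1.68-fold lower at an adjusted p of 0.0491, which became 0.0727 without the pairing and 0.0561 to 0.108 without any one of 8 mice. *Cdo1*, cysteine dioxygenase, was 2.64-fold lower (adjusted p = 0.0264), a call lost without any one of mice 143, 146, 150, 151, 152 and 158 at 0.0527 to 0.0661. Its gastrocnemius value in mouse 149 was 79.2 against a median of 15.7, so that the size of this fold depends on the background. *Tmem45b*, a membrane protein, had 10 to 132.4 (median 30.15) in the gastrocnemius and 24.2 to 214 (median 71.8) in the quadriceps, a 2.49-fold difference (adjusted p = 0.0222, and 0.054 to 0.0563 without mouse 145, 150 or 158). How much of these differences comes from fat cells in the samples was not tested.

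Genes of myelin were higher in the gastrocnemius, and all 4 tested Schwann cell markers were called (against 1.88% of all tested genes called higher), with a median log2 difference of 1.29. *Mbp*, myelin basic protein, had 68.9 to 213.8 (median 158.1) in the gastrocnemius against 46.8 to 67.1 (median 59.2) in the quadriceps without overlap, a 2.56-fold difference (adjusted p = 0.000112). *Prx* and *Pmp22*, of the peripheral myelin sheath, were 2.32-fold and 1.67-fold higher. In mouse 145 the summed intensity of 11 Schwann cell markers was 627 in the gastrocnemius against 657.4 in the quadriceps, the only mouse in which it was lower in the gastrocnemius. Of 5 genes of the neuromuscular junction 1 was called (20%, against 3.60% of all tested genes). It was *Chrna1*, the alpha subunit of the acetylcholine receptor, 1.37-fold higher.

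Of 20 tested tendon, fibroblast and matrix genes 4 were called (20%, against 3.60% of all tested genes). The tendon genes *Scx*, a transcription factor of tendon cells, and *Thbs4*, a matrix protein, were 1.43-fold and 1.39-fold higher in the gastrocnemius in 10 of 10 mice, out of 8 tested. Of 12 fibroblast and matrix genes, *Col3a1* and *Dpt* were 1.35-fold and 1.33-fold lower, and *Dpt* fell under the fold threshold without mouse 150 (log2 -0.37) or mouse 151 (-0.38). *Tagln*, of smooth muscle, was 1.43-fold higher among 7 tested (adjusted p = 0.0216, and 0.0524 to 0.0534 without mouse 143, 150 or 158), and no endothelial marker was called among 9. No member was called among 15 clock genes, 8 ribosomal protein genes, 6 satellite cell genes, 18 ion channel and calcium handling genes or 8 imprinted genes, where *Peg3* had means of 85.9 ± 43.2 and 166 ± 75.8 (adjusted p = 0.179). As only 3.60% of all tested genes were called, the absence of calls in lists this small says little about them. The potassium channel *Kcnc4*, called above, was not part of the ion channel list. Without mouse 149, 1 clock gene and 1 ion channel gene were called, and without mouse 144, 1 imprinted gene. Among 20 genes of stress, atrophy and growth control, *Gadd45a*, induced in atrophy, was 1.72-fold lower (adjusted p = 0.00266). *Cish*, a suppressor of cytokine signaling, was 1.38-fold lower within mice (adjusted p = 0.00351), although it ranged from 8.7 to 213.6 among gastrocnemii and from 18.3 to 289.2 among quadriceps, and without the pairing its adjusted p was 0.73. *Aurka*, a mitotic kinase, was 1.53-fold lower among 9 cell cycle genes. *H2-Aa*, an MHC class II chain, was 1.3-fold lower among 10 antigen presentation genes at an adjusted p of 0.0237, which was 0.0611 without the pairing. That call was lost without any one of mice 145, 146, 150, 151, 152 and 158 (0.0527 to 0.059), while 3 members were called without mouse 144 and 2 without mouse 149 or 157. Called shares were 15% of the stress, atrophy and growth control genes and 14.3% of the smooth muscle and pericyte genes. They were 11.1% of the cell cycle genes and 10% of the antigen presentation genes. Over all tested genes the share was 3.60%.

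**Figure D4:**
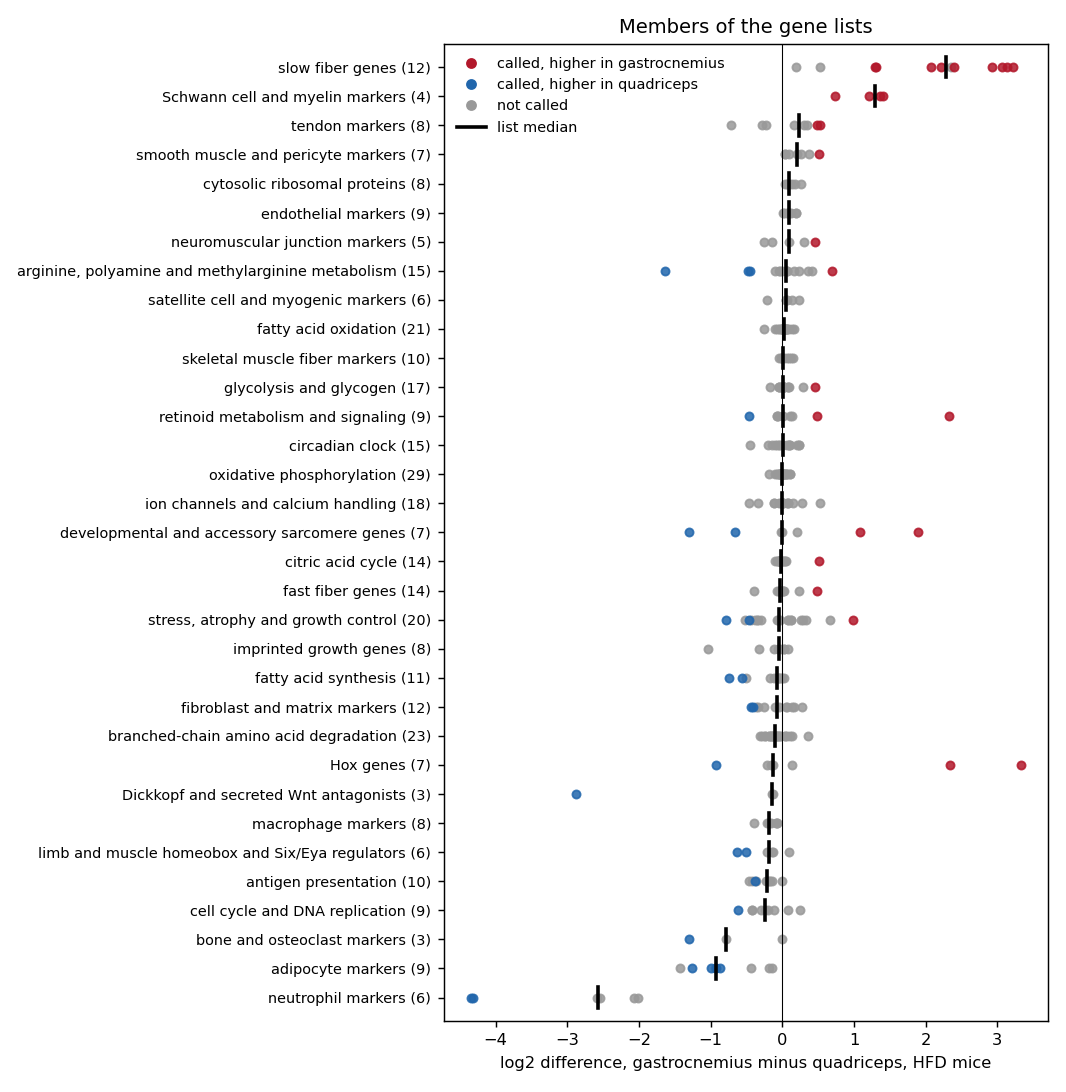
Log2 difference between the gastrocnemius and the quadriceps in HFD mice (horizontal axis) for the tested members of each gene list with at least 3 of them (vertical axis, number tested in brackets). Red and blue points are members called higher in the gastrocnemius or the quadriceps, and grey points are not called. Black bars are list medians, which range from 2.28 for slow fiber genes to -2.57 for neutrophil markers. All 6 tested neutrophil markers had a gastrocnemius mean under 20, so that the size of their median depends on the background.

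The muscle difference of the HFD mice was compared with that of the LFD mice, which are separate animals. One LFD mouse, number 141, stood apart. Its muscles were alike for genes that separated the muscles of the other mice, with *Tbx1* at 205.3 in its gastrocnemius and 242.0 in its quadriceps, where the other 9 LFD mice had 36 to 56.3 and 354 to 634. *Hoxd9* was 104.8 and 99.0 in mouse 141, and 165.9 to 293.8 and 13 to 25.2 in the others. In the LFD mice 219 genes were called (3.38%), 119 higher and 100 lower in the gastrocnemius, and 269 without mouse 141. Of the 233 genes called in the HFD mice 158 (67.8%) were also called in the LFD mice, all in the same direction, and these were 72.1% of the LFD calls. Without mouse 141, 173 (74.2%) were shared.

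Of the 75 genes called in the HFD mice alone, 29 higher and 46 lower in the gastrocnemius, 74 had the same direction in the LFD mice, against 73.3% of all tested genes. Their median size was 0.44 (log2) in the HFD mice and 0.31 in the same direction in the LFD mice, where 30 of them passed the FDR with a fold change under 1.3. *S100a8*, *S100a9*, *Igkc* and *Slc4a1* were among the 75. *S100a8* in the LFD mice was 5.5 to 8.9 in the gastrocnemius against 5.1 to 1075 in the quadriceps outside mouse 141. Low *S100a8* and low *Myh7* did not always go together in the LFD quadriceps. Mouse 159 had *S100a8* at 5.1 and *Myh7* at 422.2, and mouse 141 had 7.3 and 286. In mice 142, 147, 154 and 156 *S100a8* was 6.2 to 8.1 and *Myh7* 3.2 to 45.4. In mice 148, 153, 155 and 160 they were 342.6 to 1075 and 211.9 to 842.6. Conversely, the 219 genes called in the LFD mice kept their direction in each single HFD mouse for between 84.9% (mouse 149) and 95.9% (mouse 150) of the genes, where the share over all tested genes was between 54.1% (mouse 145) and 64.9% (mouse 157). Their median log2 difference in that direction was between 0.49 (mice 145 and 149) and 0.73 (mouse 143).

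No gene passed a test of whether the muscle difference depended on diet (limma on the paired differences of 20 mice, 0 of 6479 at an FDR under 0.05). An unadjusted p under 0.05 was found for 203 genes (3.13%), and the smallest adjusted p was 0.848. It was that of *Slc7a6os*, named after its values were seen, with means of 19.2 ± 2.56 in the gastrocnemius against 27.5 ± 3.87 in the quadriceps of the HFD mice and 23 ± 2.84 and 24.6 ± 2.94 in the LFD mice. Without mouse 143, 1 gene passed (*Ddx52*, also named after its values were seen, adjusted p = 0.0405). The log2 muscle difference of the HFD mice minus that of the LFD mice was 0.13 (SE 0.37) for *Hoxd9*, -0.1 (0.29) for *Hoxd8* and -0.55 (0.34) for *Tbx1*. These values depended on LFD mouse 141, and without it they were -0.21 (0.19), -0.36 (0.16) and -0.23 (0.19), so that the sign of *Hoxd9* turned, and none passed the FDR. The value was 0.12 (1.13) for *Myh7* and 0.01 (0.83) for *Tnni1*, and without mouse 141 -0.18 (1.15) and -0.27 (0.82), and with such standard errors a sizeable dependence on diet was not detectable for these 2 genes. It was 0.37 (0.19) for *Ppargc1a* and -0.19 (0.27) for *Adipoq*, and 0.29 (0.18) and -0.12 (0.27) without mouse 141. The median of the slow fiber list was 1.96 in the LFD mice, with 10 of 12 members called, and that of the Schwann cell list 1.13, with 4 of 4.

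**Figure D5:**
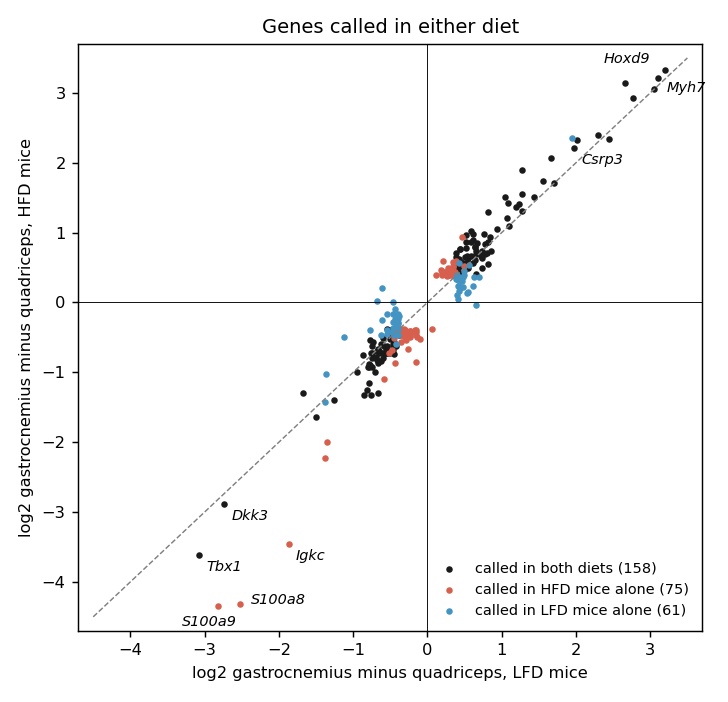
Log2 difference between the gastrocnemius and the quadriceps in HFD mice (vertical axis) against LFD mice (horizontal axis) for genes called in both diets (158, black), in HFD mice alone (75, red) and in LFD mice alone (61, blue), with a dashed line of equal difference. All 158 black points lie in the upper right or lower left quadrant, and *S100a8*, *S100a9* and *Igkc* lie below the line.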

How the data were processed

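One Affymetrix mouse genome array was run per muscle and mouse. For each Entrez gene the authors built a single probe set, quantile-normalized the arrays and summarized them by GC-RMA (no version stated in the sources used here), and deposited linear signal intensities. The extraction text in the labels mentions the quadriceps for every array, whereas title, source and tissue fields name the muscle given here. Of 16475 probe sets (64 controls left out), 16229 carry a RefSeq symbol (GRCm38.p6), 28 a symbol from the platform annotation alone and 218 none.

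The log2 intensities of the 20 HFD arrays entered a linear model with muscle and mouse as terms (limma 3.58.1, R 4.3.3). Mouse numbers in the labels mark both muscles of one animal. As a check, the deviations of both muscles from their group means were correlated. The median r was -0.07 for muscles of the same HFD mouse and -0.01 for those of different mice, and 0.39 and -0.05 in the LFD mice. The gastrocnemius correlated best with the quadriceps of its own mouse in 2 of 10 HFD mice and 6 of 10 LFD mice. In the HFD mice the check thus showed no likeness of paired muscles, and the pairing rests on the labels. A call needed both a fold change above 1.3 and an FDR below 0.05, and dependence on diet needed the FDR alone. A fold is a ratio of geometric means. Tested on simulated data for the HFD comparison (6479 probe sets), 84% of genes changed 1.5-fold and 99% of those changed 2-fold were recovered. The number of arrays limits the precision. No pair of arrays was identical, and the labels name no batch.

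Members and the gene lists (22 of pathways, 14 of markers) were chosen with earlier results of these data known. The named genes are the 10 called genes per direction with the largest difference in at least 9 of 10 mice, the 5 per direction with the smallest adjusted p, up to 4 per list, genes the study names, those at the edge of the filter, and those marked as named after their values were seen, to which *Myl3*, *Casq2* and *Mybpc1* also belong. Alternatives were other filters, scalings, variance models and thresholds, and fits without the block or without each mouse. Tables and figures used Python 3.11.15, pandas 2.3.3 and matplotlib 3.10.9. Results for some genes are not reported here.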

Additional observations from a re-analysis of the deposited data

Results flagged for a closer look

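In 18 of 318 groups of 10 values of a named gene, 5.66%, the highest or lowest value lay far from the nearest of the others, measured as its gap divided by the range of the group and compared with Dixon's critical value for 10 values, where chance gives about 1 in 20. In the gastrocnemius of mouse 149 these were *Cdo1* (79.2, next value 21.3, ratio 0.622), *Retn* (76.7, next 27.8, ratio 0.655), *Cidec* (234.4, next 54.1, ratio 0.491), *Acp5* (46, next 23.3, ratio 0.548) and *Dpt* (1004, next 738.5, ratio 0.512), all high, and *Kcnc4* (55.6, next 76.9, ratio 0.66), low. In the gastrocnemius of other mice they were *Igkc* in mouse 158 (41.7, next 13.6, ratio 0.508), *Rxrg* and *Srebf1* in mouse 151 (517.6 and 333.5, ratios 0.508 and 0.51), *Rps14* in mouse 157 (5249, ratio 0.475), *Kcnc1*, low, in mouse 144 (69.3, ratio 0.471) and *Mbp*, low, in mouse 145 (68.9, next 120.6, ratio 0.494). In the quadriceps they were *Hadh* and *Acta2*, high, and *Kcnma1*, low, in mouse 145 (4294, 937.4 and 14.9, ratios 0.479, 0.47 and 0.486), *Odc1*, high, and *Meg3*, low, in mouse 144 (305.6 and 64.4, ratios 0.505 and 0.481) and *Cdkn1c*, high, in mouse 158 (305.6, ratio 0.517).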

How the results depend on the processing

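The count of 233 genes in the HFD mice became 116 (59 higher, 57 lower) at a fold change over 1.5 and 409 (206 higher, 203 lower) by the FDR alone. At an FDR under 0.01 it was 156, of which 70 were lower. Without the replicate block of the mouse the counts were 224 in the HFD mice (124 higher, 100 lower) with 213 genes shared, 163 in the LFD mice, 132 in both diets and 0 for the dependence on diet. With 1 mouse left out the HFD count was 191 to 243 (107 to 124 higher, 83 to 129 lower), and the dependence on diet had 0 to 1 genes, the 1 being found without mouse 143. None of the 233 calls changed direction under any of these settings. Leaving out the signal filter gave 309 calls in the HFD mice and 303 in the LFD mice, and log2(signal + 16) gave 185 and 167. Repeated quantile normalization gave 134 higher and 106 lower. The FDR alone in the LFD mice gave 188 shared genes. Leaving out LFD mouse 141 was chosen after seeing the data. Of 63 named genes with a call, 32 kept it under all settings. Genes near an intensity of 20 are limited by the background of the array. The causes of these changes were not tested.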
